A study of Homo sapiens with 6 samples.

Results

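The regions described here are 420 places in the genome where the promoter mark H3K4me3 was called in both cultures and the Polycomb mark H3K27me3 was called in Boost-Chir only. H3K4me3 peaks of both conditions on chromosomes 1 to 22 were joined within 3 kb into 15988 loci, and 13950 of these held an H3K4me3 peak in each condition. A locus was kept when 0 bp of a Low-Chir H3K27me3 peak and at least 1 bp of a Boost-Chir H3K27me3 peak lay between its ends. Of the 10882 loci with no H3K27me3 in Low-Chir, 3.86% met this rule. The loci were thus chosen by the presence of H3K4me3 peaks in both conditions and of H3K27me3 peaks in Boost-Chir alone, and that pattern is no finding. The length and height of H3K4me3 were not criteria of the rule. The extent of H3K4me3 in both conditions did set the locus ends between which H3K27me3 was counted. H3K4me3 length is thus not independent of the selection or of the H3K27me3 length counted.

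H9 cells, a long-established line of human embryonic stem cells, had been differentiated toward midbrain dopamine neurons, and neural progenitors were taken on day 11 for chromatin immunoprecipitation with sequencing (ChIP-seq). All cultures started in 0.7 µM CHIR99021, an inhibitor of the kinase GSK3 that activates WNT signalling, together with SHH C25II, LDN, SB431542 and a Rock inhibitor. Boost-Chir cultures received 7.5 µM CHIR99021 between day 4 and day 10. For Low-Chir cultures the labels do not say which of the listed concentrations was used in that interval. Medium with 3 µM CHIR99021, BDNF, ascorbic acid, GDNF, TGFβ3 and dibutyryl cAMP was given from day 10. With 1 library for each mark in each condition, no difference below has a replicate check and no p-value was computed. The H3K4me3 lists held 45390 peaks in Boost-Chir and 42647 in Low-Chir on these chromosomes, and the H3K27me3 lists 25893 and 25370. Intervals are exact (Clopper-Pearson) 95% binomial intervals. They cover counting error only and treat loci as independent, although all loci come from the same 4 libraries.

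H3K4me3 is placed around the starts of active and poised genes by the COMPASS family of methyltransferases. H3K27me3 is placed by Polycomb repressive complex 2 and covers genes held silent, among them many developmental regulators whose promoters lie in CpG islands. Promoters that carry both marks are called bivalent and are common at developmental genes in stem cells and progenitors. Since a culture is a mixture of cells, peaks of both marks at a locus may come from different cells. No annotation of genome build hg19, on which the peaks lie, was used here, so loci are given by position and not by gene.

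H3K27me3 at these loci was short and modest in height. The rule used these same peaks, and requiring none in Low-Chir favours peaks near the calling limit. The contrasts in H3K27me3 length and height with loci bivalent in both, given below, therefore describe the selection. In Boost-Chir it covered a median of 297 bp per locus (interval of the median 273 to 340), from a lowest value of 9 bp to a highest of 7580 bp. At loci bivalent in both cultures the Boost-Chir median was 1063 bp. A single H3K27me3 peak was present at 293 of the 420 loci (69.8%, 65.1 to 74.1), against 880 of 2555 loci bivalent in both (34.4%, 32.6 to 36.3). The mark took up a median of 11.6% of the locus, against 48.5% at loci bivalent in both. H3K27me3 was also short at the 513 loci of the opposite kind, with H3K27me3 in Low-Chir alone. There Low-Chir H3K27me3 covered a median of 358 bp and 12.8% of the locus, with a single peak at 329 loci (64.1%, 59.8 to 68.3). Of the 420 loci, 112 held at least 500 bp of Boost-Chir H3K27me3 and 38 at least 1000 bp.

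Height was expressed as a summit level, the reads at the highest peak of the locus divided by the genome-wide background of the library. The Boost-Chir H3K27me3 level had a median of 5.60 times background, with a range of 4.29 to 10.2, against a median of 7.58 at loci bivalent in both. Peaks among the top 50% of the Boost-Chir list by −log10 q were found at 179 of the 420 loci (42.6%, 37.8 to 47.5) and at 2131 of 2555 loci bivalent in both (83.4%, 81.9 to 84.8). At loci of the opposite kind, 247 of 513 (48.1%, 43.7 to 52.6) had a peak in the top 50% of the Low-Chir list. The weakest Low-Chir H3K27me3 peak stood at 3.84 times background, 5% of the Low-Chir peaks stood at or under 4.80, and the median was 6.41. At 58 loci (13.8%) the Boost-Chir level was no higher than that 5% mark, and at 333 (79.3%, 75.1 to 83.1) it was no higher than the Low-Chir median. The median over all Boost-Chir H3K27me3 peaks, 5.93, was itself under the Low-Chir median, so a low level against that line is not particular to these loci. The absence of a Low-Chir peak is a level under the calling limit, not a measured 0. The Boost-Chir H3K27me3 library was 0.971 times as deep as the Low-Chir one.

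**Figure D1:**
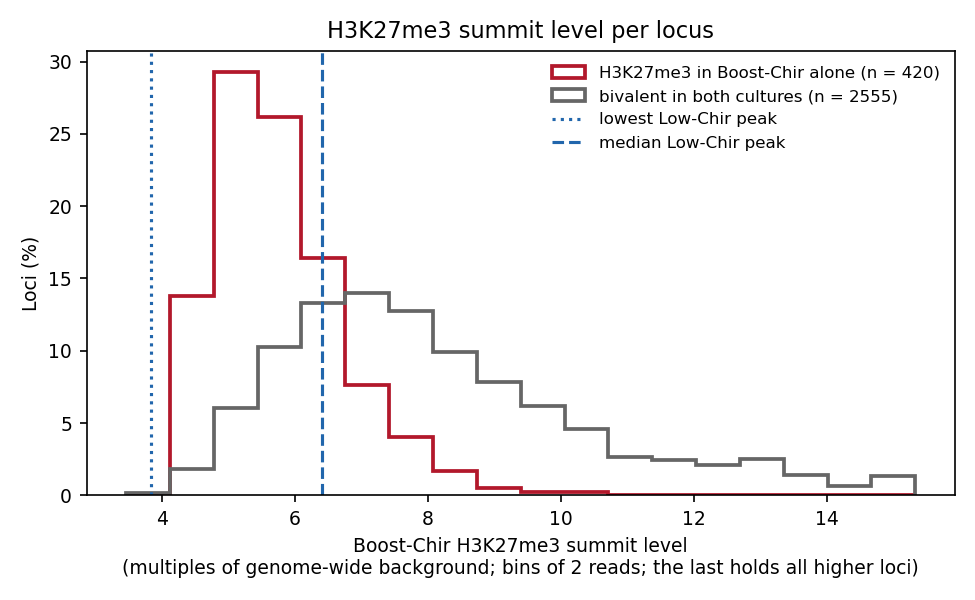
Boost-Chir H3K27me3 summit level per locus, in multiples of the genome-wide background of the library (x axis), as a percentage of loci (y axis). The 420 loci with H3K27me3 in Boost-Chir alone have a median of 5.60 and lie to the left of the 2555 loci bivalent in both, whose median is 7.58; the vertical lines mark the lowest (3.84) and the median (6.41) Low-Chir peak.

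Just inside the rule, the locus on chromosome 7 at 39872394 to 39873645 met it with 9 bp of Boost-Chir H3K27me3. Loci on chromosome 1 at 109203946 to 109204319 and on chromosome 14 at 81421319 to 81421797 met it with 12 and 14 bp. The nearest Low-Chir H3K27me3 peak lay only 7 bp outside a locus on chromosome 2 at 132120800 to 132121926 and 17 bp outside one on chromosome 3 at 77087791 to 77090550. Just outside, a locus on chromosome 6 at 7051281 to 7053162 held 193 bp of H3K27me3 in Boost-Chir and 17 bp in Low-Chir. On chromosome 15 at 69136146 to 69136557 the nearest Boost-Chir H3K27me3 peak lay 3 bp from the locus. Membership near these limits thus turned on a few bases.

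Low-Chir H3K27me3 lay near some of the loci and far from others. No Low-Chir H3K27me3 peak lay within 5 kb of 313 of the 420 loci (74.5%, 70.1 to 78.6), and the median distance to the nearest one was 83.2 kb. Over all 13950 loci, bivalent ones included, the share was 74.2% (73.5 to 74.9), practically the same. At loci without H3K27me3 in either culture it was 95.9% of 10462, with a median distance of 145.9 kb. At 78 loci (18.6%, 14.97 to 22.6), the H3K27me3 domain that reached into the locus in Boost-Chir, joined within 3 kb, also held Low-Chir H3K27me3 outside the locus. At 159 loci (37.9%) a Boost-Chir H3K27me3 peak ran past an end of the locus, against 1905 of 2555 (74.6%) at loci bivalent in both. A Low-Chir H3K27me3 peak did so at 197 of 513 loci of the opposite kind (38.4%).

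Within the locus, H3K27me3 lay toward the ends more often than at loci bivalent in both. Its midpoint fell in the inner 50% of the locus at 194 of 420 loci (46.2%, 41.3 to 51.1), against 1866 of 2555 (73.0%, 71.3 to 74.7), where the mark filled more of the locus and so left its midpoint less room to lie off centre. At loci of the opposite kind, the midpoint of Low-Chir H3K27me3 fell there at 259 of 513 (50.5%, 46.1 to 54.9), an interval that overlaps that of the 420 loci. Boost-Chir H3K4me3 covered 69.2% of the bases under Boost-Chir H3K27me3 and the same 69.2% of the other bases of the 420 loci. A Boost-Chir H3K4me3 peak lay under the H3K27me3 at 376 loci (89.5%, 86.2 to 92.3), and a Low-Chir H3K4me3 peak lay there at 318 (75.7%, 71.3 to 79.7). At loci bivalent in both these shares were 96.1% (95.3 to 96.8) and 91.7% (90.6 to 92.8).

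The locus with the most H3K27me3 was on chromosome 7 at 155595006 to 155606391. There 7580 bp were under H3K27me3 in Boost-Chir and 0 bp in Low-Chir, with a Boost-Chir level of 9.89 times background. H3K4me3 covered 5471 bp in Boost-Chir and 8813 bp in Low-Chir, and its summit level was 11.6 times background in Boost-Chir against 20.3 in Low-Chir. This 1 locus thus combined the greatest H3K27me3 length of the set with less H3K4me3 by both measures. The nearest Low-Chir H3K27me3 peak was 5230 bp from its ends.

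A second locus, on chromosome 5 at 135526183 to 135529945, was under Boost-Chir H3K27me3 over 3356 bp, or 89.2% of its length. Its H3K4me3 covered 1322 bp in Boost-Chir and 3045 bp in Low-Chir, with levels of 11.2 and 12.7 times background. The part of this H3K4me3 that lay under the H3K27me3 was 1050 bp in Boost-Chir and 2757 bp in Low-Chir, so nearly all of the difference in length lay there. On chromosome 13 at 58202374 to 58211919, 2933 bp of Boost-Chir H3K27me3 stood beside 5056 bp of H3K4me3 in Boost-Chir and 7270 bp in Low-Chir. The nearest Low-Chir H3K27me3 peak was 3774 kb away.

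H3K4me3 differed in height as well as in length on chromosome 11 at 13983755 to 13991978. With 2788 bp of Boost-Chir H3K27me3, H3K4me3 covered 3458 bp in Boost-Chir and 5450 bp in Low-Chir, at levels of 10.5 and 19.9 times background. The locus on chromosome 4 at 145566458 to 145571343 held 2748 bp of Boost-Chir H3K27me3, and all 2748 bp were under H3K4me3 in Low-Chir, against 1438 bp in Boost-Chir. Its H3K4me3 covered 1977 bp in Boost-Chir and 4147 bp in Low-Chir. Both loci lay more than 400 kb from Low-Chir H3K27me3, at 411.0 and 941.9 kb.

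The next loci lay on chromosomes 14, 3 and 10, with 2255 to 2497 bp of H3K27me3. On chromosome 14 at 85994319 to 86002889, all 2497 bp of Boost-Chir H3K27me3 lay under H3K4me3 in both conditions, and H3K4me3 covered 7392 bp in Boost-Chir and 8156 bp in Low-Chir. The locus on chromosome 3 at 55512006 to 55523668 had similar heights of H3K4me3, at 19.8 times background in Boost-Chir and 19.4 in Low-Chir. Its length was 8887 bp in Boost-Chir and 10895 bp in Low-Chir, beside 2349 bp of Boost-Chir H3K27me3. Chromosome 10 at 89418864 to 89422050 had 2255 bp of Boost-Chir H3K27me3, with 1971 bp of H3K4me3 in Boost-Chir and 2417 bp in Low-Chir.

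The last pair of the first 10 lay near Low-Chir H3K27me3. On chromosome 22 at 44722041 to 44728370, at 1918 bp from it, 2162 bp of Boost-Chir H3K27me3 reached 10.2 times background, the highest level of all 420 loci. H3K4me3 there covered 1682 bp in Boost-Chir and 1921 bp in Low-Chir. Only 80 bp separated the locus on chromosome 4 at 16083171 to 16086511 from Low-Chir H3K27me3. It had 1914 bp of Boost-Chir H3K27me3 and was the 1 locus of the 10 with longer H3K4me3 in Boost-Chir, at 2910 bp against 2706 bp in Low-Chir. Together the first 10 loci held 15.6% of the 195.6 kb of H3K27me3 in the 420 loci.

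**Figure D2:**
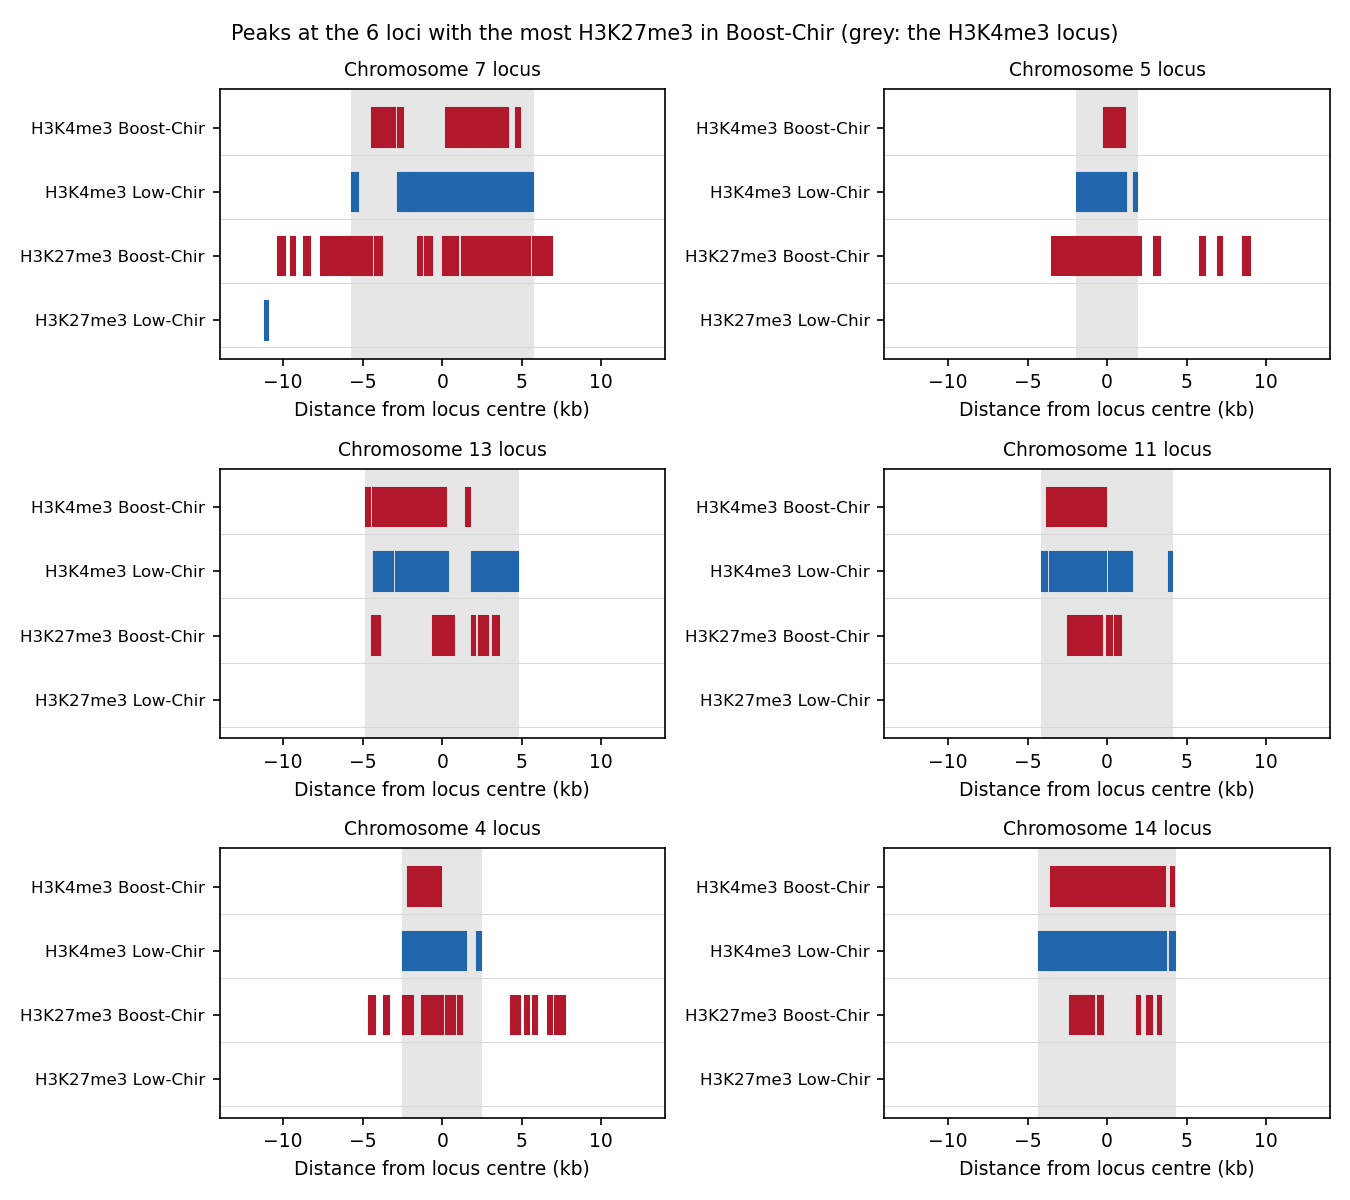
Peaks of H3K4me3 and H3K27me3 (rows; Boost-Chir in red, Low-Chir in blue) at the 6 loci with the most Boost-Chir H3K27me3, by distance from the locus centre in kb. Grey marks the joined H3K4me3 locus; the Low-Chir H3K27me3 row is empty inside each one, and on chromosome 7 the H3K4me3 row is shorter in Boost-Chir (5471 bp) than in Low-Chir (8813 bp).

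Ranked by fold enrichment of H3K27me3, the authors' own value for a peak, the loci of greatest H3K27me3 level and length, on chromosomes 22 and 7, came first, at 7.89-fold and 7.65-fold. Next was a short locus on chromosome 8 at 91803807 to 91804350, at 6.65-fold, whose whole 544 bp were under Boost-Chir H3K27me3. Its domain of 3419 bp also held 1266 bp of Low-Chir H3K27me3 outside the locus, the nearest 388 bp away. On chromosome 15 at 48009183 to 48013108 the fold was 6.60, with 1055 bp of Boost-Chir H3K27me3 and 2548 bp of H3K4me3 in Boost-Chir, against 3385 bp in Low-Chir. The fifth was the locus on chromosome 14 that starts at 85994319, at 6.41-fold.

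H3K4me3 at the 420 loci covered a median of 2.26 kb in Boost-Chir (quartiles 1.18 and 3.39) and 2.01 kb in Low-Chir (1.10 and 3.24). The Low-Chir length lay between that of loci without H3K27me3 in either culture, at 2.58 kb, and that of loci bivalent in both, at 1.52 kb. The Low-Chir summit level was likewise intermediate, at a median of 12.7 times background, against 15.8 without H3K27me3 and 9.95 at loci bivalent in both. Loci of the opposite kind were intermediate too, with Low-Chir medians of 1.75 kb and 11.3 times background. In the Low-Chir library, the 420 loci thus carried less H3K4me3 than the loci without H3K27me3 in either culture, although both of these kinds were defined with Boost-Chir peaks too.

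At 259 of the 420 loci (61.7%, 56.8 to 66.3) H3K4me3 was longer in Boost-Chir, and it was shorter at 161 (38.3%, 33.7 to 43.2). Over all 13950 loci the percentages were 81.9% longer and 18.0% shorter, so longer H3K4me3 was less frequent at the 420 loci. The Boost-Chir H3K4me3 library was 1.21 times as deep as the Low-Chir one, for all kinds of locus alike, and the part of depth in these lengths was not tested. At loci bivalent in both the longer share was 64.4% (62.5 to 66.2), an interval that overlaps that of the 420 loci. Without H3K27me3 in either culture it was 87.2% (86.5 to 87.8). At the 513 loci of the opposite kind, with H3K27me3 in Low-Chir alone, it was 78.9% (75.2 to 82.4). These intervals do not overlap that of the 420 loci.

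The size of the difference was small at the 420 loci. The log2 ratio of H3K4me3 length, Boost-Chir over Low-Chir, had a median of 0.16 at the 420 loci (interval 0.10 to 0.23), against 0.35 over all 13950 loci. It was 0.20 at loci bivalent in both, 0.38 at loci without H3K27me3 and 0.36 at loci of the opposite kind. H3K4me3 was at least 1.5-fold longer in Boost-Chir at 75 of the 420 loci (17.9%), where 26.9% of all loci were, and at least 1.5-fold shorter at 43 (10.2%, 7.51 to 13.5), where 4.01% of all loci were. Loci bivalent in both had 24.0% (22.4 to 25.7) at least 1.5-fold longer and 9.82% (8.70 to 11.0) at least 1.5-fold shorter, and the shorter share was close to that of the 420 loci. Counting only the 112 loci with at least 500 bp of H3K27me3 turned the median to -0.04 and left 47.3% with longer H3K4me3.

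Set against depth, the height of H3K4me3, like its length, was less often greater in Boost-Chir at the 420 loci than over all loci. Unlike length, height was more often lower than higher at the 420 loci, and the lengths were not adjusted for depth. The summit level was higher in Boost-Chir at 192 of the 420 loci (45.7%, 40.9 to 50.6) and lower at 228 (54.3%, 49.4 to 59.1), whereas 67.0% of all loci were higher and 33.0% lower. Loci bivalent in both were nearer, with 52.3% (50.3 to 54.2) higher and 47.7% (45.8 to 49.7) lower. The median ratio of levels was 0.982 (interval 0.955 to 1.002) at the 420 loci. It was at least 1.5-fold lower at 19 loci (4.52%, 2.75 to 6.97) and at least 1.5-fold higher at 9 (2.14%, 0.984 to 4.03), against 1.84% and 3.22% of all loci. At loci bivalent in both these shares were 4.23% (3.48 to 5.08) and 3.48% (2.81 to 4.27), with intervals that overlap those of the 420 loci. Both measures were lower in Boost-Chir at 118 loci (28.1%, 23.8 to 32.7), at 597 of 2555 loci bivalent in both (23.4%, 21.7 to 25.1) and at 693 of 10462 loci without H3K27me3 (6.62%, 6.15 to 7.12). The first 2 intervals overlap, and the share over all loci was 10.6%.

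**Figure D3:**
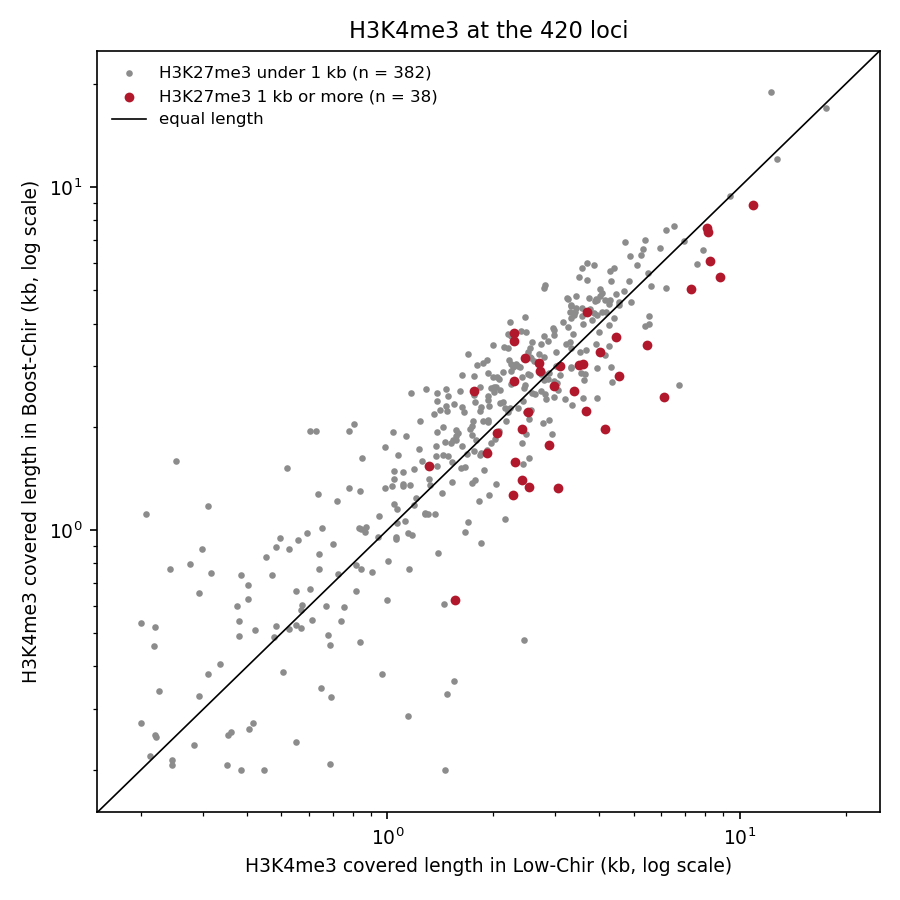
H3K4me3 covered length in Boost-Chir (y axis, kb) against Low-Chir (x axis, kb), both on log scales, with 1 point per locus and a line of equal length. Of the 38 loci with 1 kb or more of H3K27me3 (red), 29 lie below the line; of the other 382 (grey), 250 lie above it.

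Loci with much H3K27me3 differed from those with little. Where Boost-Chir H3K27me3 covered at least 1000 bp, H3K4me3 was shorter in Boost-Chir at 29 of 38 loci, and longer at 9 (23.7%, 11.4 to 40.2). Among the other 382 loci it was longer at 250 (65.4%, 60.4 to 70.2). The medians of the log2 length ratio were 0.26 under 200 bp, 0.21 from 200 to under 500 bp, 0.11 from 500 to under 1000 bp and -0.28 from 1000 bp on. The step was thus at the top of the range, and the 3 lower classes had longer shares of 66.2%, 67.1% and 59.5% with overlapping intervals. H3K4me3 summit levels were lower in Boost-Chir at 31 of the 38 loci, with a median log2 ratio of -0.23. Their median level was 12.5 times background in Boost-Chir and 14.9 in Low-Chir.

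The opposite kind went the other way where its H3K27me3 was long. At the 62 loci with at least 1000 bp of H3K27me3 in Low-Chir and none in Boost-Chir, the longer H3K4me3 was that of Boost-Chir at 61 (98.4%, 91.3 to 99.96), with a median log2 ratio of 0.76. The other 451 loci of that kind had longer H3K4me3 at 344 (76.3%, 72.1 to 80.1). Both figures stand against 81.9% longer over all loci. With under 1000 bp of H3K27me3, both kinds lay below that share. In both kinds the condition with long H3K27me3 was the one with shorter H3K4me3 at most loci. For the opposite kind that is also the usual direction over all loci.

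**Figure D4:**
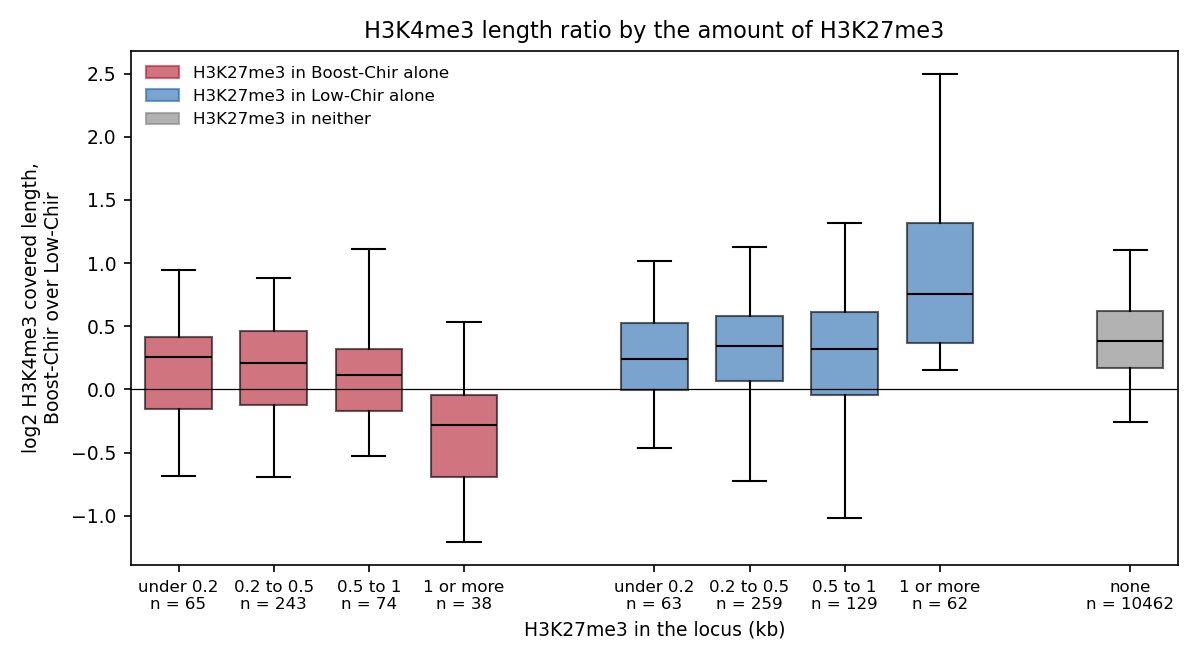
Log2 ratio of H3K4me3 covered length, Boost-Chir over Low-Chir (y axis), by the length of H3K27me3 in the locus in kb (x axis), for loci with H3K27me3 in Boost-Chir alone (red), in Low-Chir alone (blue) and in neither (grey). Boxes give the quartiles and median, and whiskers the 5th and 95th percentiles; the red class with 1 kb or more has a median of -0.28 and the blue one 0.76.

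Long H3K27me3 needs a wide locus, so loci were also split by H3K4me3 length in Low-Chir. That length is itself 1 side of the comparison, and the split did not match locus width. Median widths with at least 1000 bp of H3K27me3 and with less were 4579 and 5266.5 bp from 3 to under 5 kb. From 5 kb on they were 9652 and 8559 bp. From 3 to under 5 kb of Low-Chir H3K4me3, it was longer in Boost-Chir at 1 of 11 loci with at least 1000 bp of H3K27me3 and at 51 of 76 with less. From 5 kb on, it was longer at 0 of 8 and at 10 of 21. Over all 29 of the latter loci the share was 34.5% (17.9 to 54.3), against 86.9% (84.7 to 88.8) of 1058 loci of that length without H3K27me3 in either culture. From 2 to under 3 kb the shares were 6 of 15 and 53 of 81. Under 2 kb only 4 loci had 1000 bp of H3K27me3, and 2 of them were longer.

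**Figure D5:**
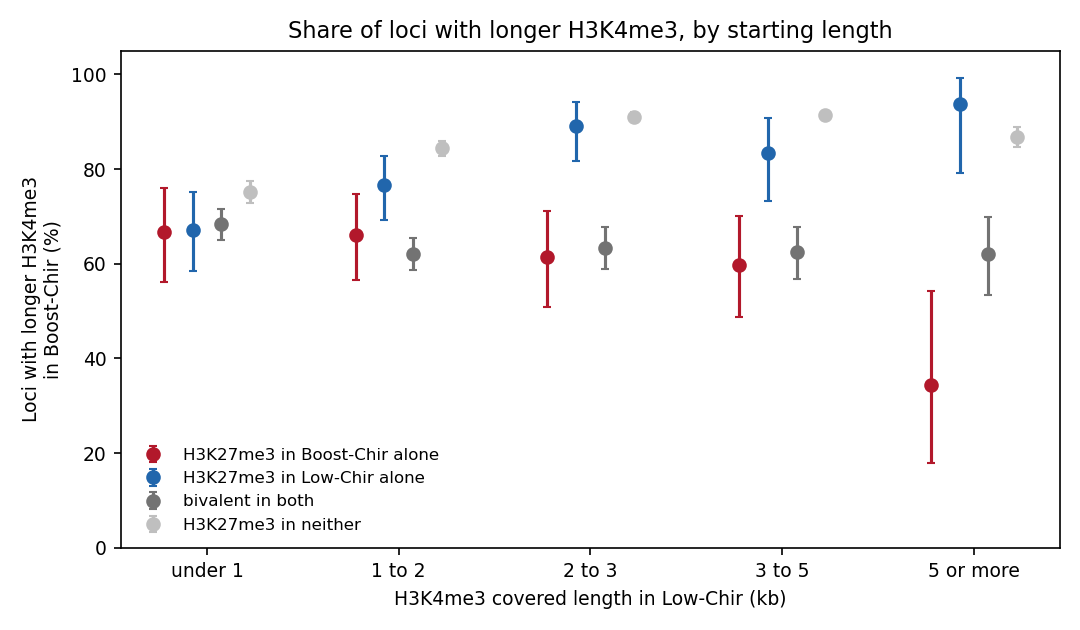
Percentage of loci with longer H3K4me3 in Boost-Chir (y axis, with exact 95% intervals) by H3K4me3 length in Low-Chir in kb (x axis), for 4 kinds of locus. Loci with H3K27me3 in Boost-Chir alone (red) are at 66.7% under 1 kb and 34.5% at 5 kb or more, while loci with H3K27me3 in neither culture (light grey) are at 75.2% and 86.9%.

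Where H3K27me3 and H3K4me3 met, the local difference depended on length too. Summed over the 420 loci, H3K4me3 covered 135.3 kb of the stretches under H3K27me3 in Boost-Chir and 134.8 kb of the same stretches in Low-Chir, a ratio of 1.004. In the rest of the same loci it covered 944.5 kb in Boost-Chir and 872.8 kb in Low-Chir, a ratio of 1.08. At loci bivalent in both, the ratio was likewise lower under Boost-Chir H3K27me3 (1.13) than outside it (1.18). At loci of the opposite kind it was 1.45 under Low-Chir H3K27me3 and 1.37 outside it. Without H3K27me3 in either culture the ratio over whole loci was 1.31. At the 38 loci with at least 1000 bp of H3K27me3, the ratio was 0.738 under the H3K27me3 and 0.849 outside it, so H3K4me3 was shorter in both places. At the other 382 loci the ratios were 1.19 and 1.11. Per locus, H3K4me3 under the H3K27me3 was shorter in Boost-Chir at 125, longer at 203 and of equal length at 92, of which 18 had none in either condition.

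The loci whose H3K4me3 was shorter in Boost-Chir by the most bases did not all carry long H3K27me3. The greatest difference was on chromosome 6 at 17278398 to 17286974, with 2654 bp in Boost-Chir and 6723 bp in Low-Chir, beside 684 bp of Boost-Chir H3K27me3. Its H3K4me3 level was 12.7 times background in Boost-Chir against 22.1 in Low-Chir. On chromosome 18 at 49865551 to 49872091, H3K4me3 covered 2442 bp in Boost-Chir and 6093 bp in Low-Chir, and 1895 bp carried Boost-Chir H3K27me3. The level of H3K4me3 there was 9.73 times background in Boost-Chir and 19.9 in Low-Chir, a log2 ratio of -1.03. The next 3 places went to the loci described above on chromosome 7, chromosome 13 and chromosome 4, the last starting at 145566458.

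The loci whose H3K4me3 was longer in Boost-Chir by the most bases carried H3K27me3 over 88 to 745 bp, a small share of each wide locus. On chromosome 11 at 118955239 to 118982659, a locus of 23 Boost-Chir peaks, H3K4me3 covered 18954 bp in Boost-Chir and 12257 bp in Low-Chir, with 745 bp of Boost-Chir H3K27me3. Chromosome 3 at 44595010 to 44600986 had 5176 bp in Boost-Chir and 2809 bp in Low-Chir, beside 200 bp of Boost-Chir H3K27me3. A locus on chromosome 8 at 66543166 to 66551043 had 6026 bp in Boost-Chir and 3690 bp in Low-Chir, beside 366 bp. On chromosome 3 at 195265132 to 195271319 the lengths were 5086 bp in Boost-Chir and 2781 bp in Low-Chir, and on chromosome 2 at 107497930 to 107504909 they were 5799 and 3569 bp. H3K27me3 took up between 1.4% and 4.6% of these 5 loci.

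H3K4me3 was as often longer far from Low-Chir H3K27me3 as near it. It was longer in Boost-Chir at 193 of the 313 loci with none within 5 kb (61.7%, 56.0 to 67.1) and at 66 of the other 107 (61.7%, 51.8 to 70.9). The isolated loci were wider, at a median of 3671 bp against 1680 bp, and 33 of the 38 loci with at least 1000 bp of H3K27me3 were among them. At those 33, H3K4me3 was shorter in Boost-Chir at 26.

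The 420 loci were scattered over the genome. They fell into 370 windows of 1 Mb, with 1 locus in 324 windows, 2 in 42 and 3 in 4. By chromosome they made up between 1.26% (0.507 to 2.57) of the loci with H3K4me3 in both conditions, on chromosome 16, and 4.98% (3.18 to 7.38), on chromosome 14. A neighbouring H3K4me3 locus on either side was bivalent in both cultures at 152 of the 420 loci (36.2%, 31.6 to 41.0). It was so at 151 of 513 loci of the opposite kind (29.4%, 25.5 to 33.6), an interval that overlaps that of the 420 loci. At loci without H3K27me3 in either culture this was so for 25.1% (24.3 to 26.0), and at loci themselves bivalent in both for 41.1% (39.2 to 43.1).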

How the data were processed

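ChIP-seq peaks were available as 1 deposited list for each of the 4 antibody libraries; the 2 input samples were not analysed here on their own. The submitters' processing notes name cutadapt 1.6, BWA 0.7.12, Picard and build hg19; the peak caller is not given in the sources used here. Peak names pair each antibody library with the input of its condition, and both marks of a condition share that input. The authors' deposited lists give for each peak its limits (other columns: start, end and summit), a fold enrichment (ratio over local background), −log10 p and −log10 q, and a score equal to 10 times −log10 q cut to a whole number, which was not used.

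Samples were grouped by their titles. Loci, covered lengths and classes were computed with Python 3.11.15, numpy 2.4.6, scipy 1.17.1 and pandas 2.3.3, and plots with matplotlib 3.10.9. Positions count from 1. Summit reads were solved from fold and p, assuming (reads + 1) over (background + 1) and a Poisson tail; the deposited −log10 p came back within 0.001 for 100% of peaks. The genome-wide background was 2.67 reads in Boost-Chir and 2.21 in Low-Chir for H3K4me3, and 3.03 and 3.12 for H3K27me3, with medians of 18, 17, 18 and 20 reads at the summit. The code was tested on simulated data. The loci, the gene lists and the limits were chosen with earlier results of these data known. Loci named are the first 10 by H3K27me3 length, 5 by fold, 5 each with the greatest difference in H3K4me3 length in either direction, and up to 3 on each side of the rule's limits. Gene lists and cell type markers were not used, since no annotation of hg19 was at hand, so the label neural progenitor was not checked. The tables at hand follow GRCh38.p14, so no sequence is printed.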

Additional observations from a re-analysis of the deposited data

Results flagged for a closer look

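The rule covers chromosomes 1 to 22, and 8 loci on chromosome X met it as well, in data outside the comparisons above. The longest H3K27me3 among them, 566 bp in Boost-Chir and 0 bp in Low-Chir, was at 39948928 to 39959016, where H3K4me3 covered 6307 bp in Boost-Chir and 6737 bp in Low-Chir. Of the 8 loci, 3 had longer and 5 shorter H3K4me3 in Boost-Chir.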

How the results depend on the processing

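No paired analysis was possible because there was 1 library per mark and condition. The percentage of loci with an annotated gene start was not computed, since no annotation of hg19 was used. The alternatives were fixed in advance except the one without depth adjustment, chosen after seeing the data: it gave a median H3K4me3 summit ratio of 1.19 in place of 0.982, since it adds the depth ratio. Requiring at least 500 bp of H3K27me3 left 112 loci, with a median H3K27me3 length of 740.5 bp, 47.3% with longer H3K4me3, a median log2 length ratio of -0.037, 79.5% without Low-Chir H3K27me3 within 5 kb and 191 loci of the opposite kind. With a Boost-Chir peak in the top 50% of its list, 179 loci remained, 54.7% had longer H3K4me3 and the opposite kind numbered 247. With the top 50% of both H3K27me3 lists, the median length was 429 bp and 31.8% had no Low-Chir H3K27me3 within 5 kb. Requiring 200 bp gave a median length of 362 bp. With no H3K27me3 of the other condition within 5 kb, 313 loci and 335 of the opposite kind met the rule, and the share without it was 100% by construction. With the top 50% of each H3K4me3 list that share was 64.4%. Under each of the 9 alternatives the opposite kind outnumbered the loci that met the rule under the same alternative. Longer H3K4me3 was the more frequent direction under 8 of them, in 54.7% to 62.4% of loci. The alternatives do not all describe the same loci: the top 50% of each H3K27me3 list shared 179 of its 402 loci with the 420. The top 50% of each H3K4me3 list shared 78 of 329. Leaving out H3K4me3 peaks also moves the ends of loci, so this count may miss the same places with other ends. Weak peaks limit the precision. At 79.3% of the loci the Boost-Chir H3K27me3 level was no higher than the median Low-Chir peak, although the median of all Boost-Chir peaks also stood under it.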

Other observations

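The 159 loci at which a Boost-Chir H3K27me3 peak ran past an end of the H3K4me3 locus carried lower H3K4me3 than the 261 with H3K27me3 wholly inside. Their median H3K4me3 summit level was 10.1 times background in Boost-Chir and 10.8 in Low-Chir, against 13.8 and 13.6 for the others. H3K4me3 was longer in Boost-Chir at 100 (62.9%, 54.9 to 70.4) and at 159 (60.9%, 54.7 to 66.9) of these loci. The 129 loci at or above the upper quartile of H3K27me3 summit level had longer H3K4me3 at 64 (49.6%, 40.7 to 58.5), and the 128 at or below the lower quartile at 87 (68.0%, 59.1 to 75.9). Across the 420 loci, H3K27me3 length and the log2 H3K4me3 length ratio had a Spearman rank correlation of -0.20, and H3K27me3 length and Low-Chir H3K4me3 length one of 0.29. All points come from the same 4 libraries, and wider loci leave room for more of both marks.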
